A study of Mus musculus with 12 samples.

Results

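The transcriptome of 6 wild-type (WT) whole mouse embryos at embryonic day 9.5 (E9.5) is described here, as the baseline of a series of 12 embryos in which the other 6 were homozygous for a deleted Traf7 allele (KO). All WT libraries of the series were taken, by the group and age in their labels and with no measured value used, and they are named WT1 to WT6. All 12 embryos were of the strain C57BL6/J and each library holds the RNA of 1 embryo. The KO line had been made with a general deleter Cre (E2a-Cre), and it also lacks a short intronic stretch of 2310061I04Rik. No treatment is named for either group. The labels do not say which embryos were littermates, what their somite number was or how much of the extraembryonic membranes was removed. The series title names brain, whereas the label of every sample names the whole embryo at E9.5.

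At E9.5 the mouse embryo has a beating heart tube, a closing neural tube and blood made in the yolk sac. Somites are still being added at the tail bud, where T, Tbx6 and the Cdx factors keep a pool of progenitors. Hox genes of the 4 clusters are switched on in an order that follows their place in the cluster, those with high paralog numbers last and closest to the tail. Circulating red cells of this stage belong to the primitive lineage and carry embryonic globins. The visceral endoderm of the yolk sac makes the serum proteins and lipoproteins that the liver makes later.

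Libraries of the WT embryos held 16710896 to 18878578 counts, and those of KO embryos 16675204 to 21917571. A gene with no read in a WT library can lie below up to 3 counts, or 0.161 to 0.179 CPM (counts scaled to the library size with TMM factors). This floor covers counting error only. Traf7 stood at 2416, 2017, 2281, 1995, 1965 and 1939 counts in WT1 to WT6, and between 13.1 and 19.3 CPM in the KO embryos against 114 to 144 CPM in WT (log2 fold change -2.83, SE 0.0918, edgeR adjusted p = 2.4e-10). The groups did not overlap. Only 3 of 14804 genes tested, or 0.0203%, were called between the groups at an adjusted p of 0.05 by the edgeR quasi-likelihood test. WT1, WT2 and WT3 carried Xist and WT4, WT5 and WT6 carried Y-linked transcripts, so both sexes were present.

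Of 54532 genes in the table, 25443 had at least 1 count in a WT embryo and 11918 had a mean over 1 FPKM (fragments divided by gene length and library size). Of these, 6909 lay between 1 and 10 FPKM, 4534 between 10 and 100 FPKM, 450 between 100 and 1000 FPKM and 25 above. Protein-coding genes took 98% ± 0.0589 of the counts (SD, n = 6) and made up 10912 of the detected genes. Processed pseudogenes followed with 0.989% ± 0.0465 of the counts in 600 detected genes, and lincRNA genes with 0.369% ± 0.0167 in 92 detected genes. Counts were spread over many genes. The 10 most abundant took 4.54% ± 0.134, the 100 most abundant 18% ± 0.318, and 966 genes were needed to reach 50% of the counts. Genes of the mitochondrial genome took 0.776% ± 0.134, with a range of 0.585% to 0.936%.

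The protein-coding genes with the highest level per length included genes of translation, the cytoskeleton, the mitochondrion and embryonic blood. Eef1a1, which carries aminoacyl-tRNA to the ribosome, was first at 4655 ± 99.7 FPKM (SD, n = 6), with a range of only 4532 to 4777 FPKM over the embryos. The ribosomal stalk genes Rplp1 (3074 ± 142 FPKM) and Rplp0 (1944 ± 79.2 FPKM) were close behind, and Rps2, Rps3a1, Rpl8, Rps15, Rpl36 and Rpl4 held between 1109.6 and 1505 FPKM. Taken as a list, the 83 ribosomal protein genes had a median of 355 FPKM and took 6.52% ± 0.214 of the counts. Hsp90ab1, a constitutive chaperone, stood at 1976 ± 57.2 FPKM. Ptma, Actb and Tubb5 (a chromatin-associated acidic protein, cytoplasmic actin and a tubulin of dividing and neural cells) stood at 1863 ± 64.2, 1197 ± 36.5 and 1183 ± 17.2 FPKM. Mif and Eef2 completed the set at 1151 ± 62.5 and 1116 ± 51.8 FPKM. The mitochondrial genes mt-Co1 (1918 ± 328 FPKM) and mt-Nd1 (1445 ± 277 FPKM) encode subunits of respiratory complexes IV and I.

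Embryonic globins were the blood-specific members of the 20 highest protein-coding genes. The beta-like globins Hbb-y and Hbb-bh1 had means of 2491 ± 915 and 1725 ± 586 FPKM, and the alpha-like Hba-x 1573 ± 526 FPKM. Adult-type globins were lower, with Hba-a1 at 348 ± 131, Hba-a2 at 25.5 ± 13, Hbb-bs at 6.85 ± 2.64 and Hbb-bt at 2.41 ± 0.992 FPKM. Hba-a1 and Hba-a2, like Hbb-bs and Hbb-bt, are near-identical pairs, and their split is uncertain. All 7 globins together took 0.259% to 0.655% of the counts.

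Among genes under 200 bases, whose FPKM is divided by a very short length, Gm23935 had the highest mean of the whole table, 12919 ± 6156 FPKM. It stood at 246, 644, 958, 663, 639 and 1294 CPM in WT1 to WT6, so that the highest embryo held 5.27 times the level of the lowest. The annotation lists it as a miRNA gene of 57 bases on chr16:11144125-11144181 (GRCm38). Whether its reads came from a miRNA was not tested, and the level is not read as miRNA expression. Gm24270, another 57-base miRNA entry on chr9:56223715-56223771, measured 5.43, 8.25, 32.7, 15.9, 15.8 and 17.1 CPM. The transcripts of both genes in GENCODE M21 have the same 57 bases, and bases beyond them were not compared. The 57 bases are printed here 5′ to 3′ because reads lying within them cannot be assigned to either gene by sequence:
Gm23935: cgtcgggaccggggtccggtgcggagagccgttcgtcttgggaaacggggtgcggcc
Gm24270: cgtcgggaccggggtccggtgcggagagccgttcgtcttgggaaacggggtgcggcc
WT1 was the lowest embryo for both genes. The highest was WT6 for Gm23935 and WT3 for Gm24270, and the split between these entries is uncertain.

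H19, the imprinted lincRNA of the Igf2 locus, was the highest long non-coding RNA gene at 832 ± 70.7 FPKM, and its embryos ranged from 721 to 905 FPKM. Cct6a followed at 211 ± 3.87 FPKM. It is listed as a processed transcript although it is known as a subunit gene of the cytosolic chaperonin. Gm10076 had 102 ± 30.4, 2900097C17Rik 56 ± 2.35, AI506816 46.9 ± 1.74 and Gm14230 33.6 ± 2.44 FPKM. The last 4 of the 10 highest, Gm42047, Hoxb5os, Epb41l4aos and 4930516B21Rik, lay between 22.4 and 26.6 FPKM.

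Markers of the 3 germ layers were all present. Across 33 lists of marker and pathway genes, member medians ran from 355 FPKM for ribosomal proteins to 0.0106 FPKM for trophoblast and decidua. In RNA of a whole embryo, fewer cells of a type and less RNA per cell cannot be told apart.

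**Figure D1:**
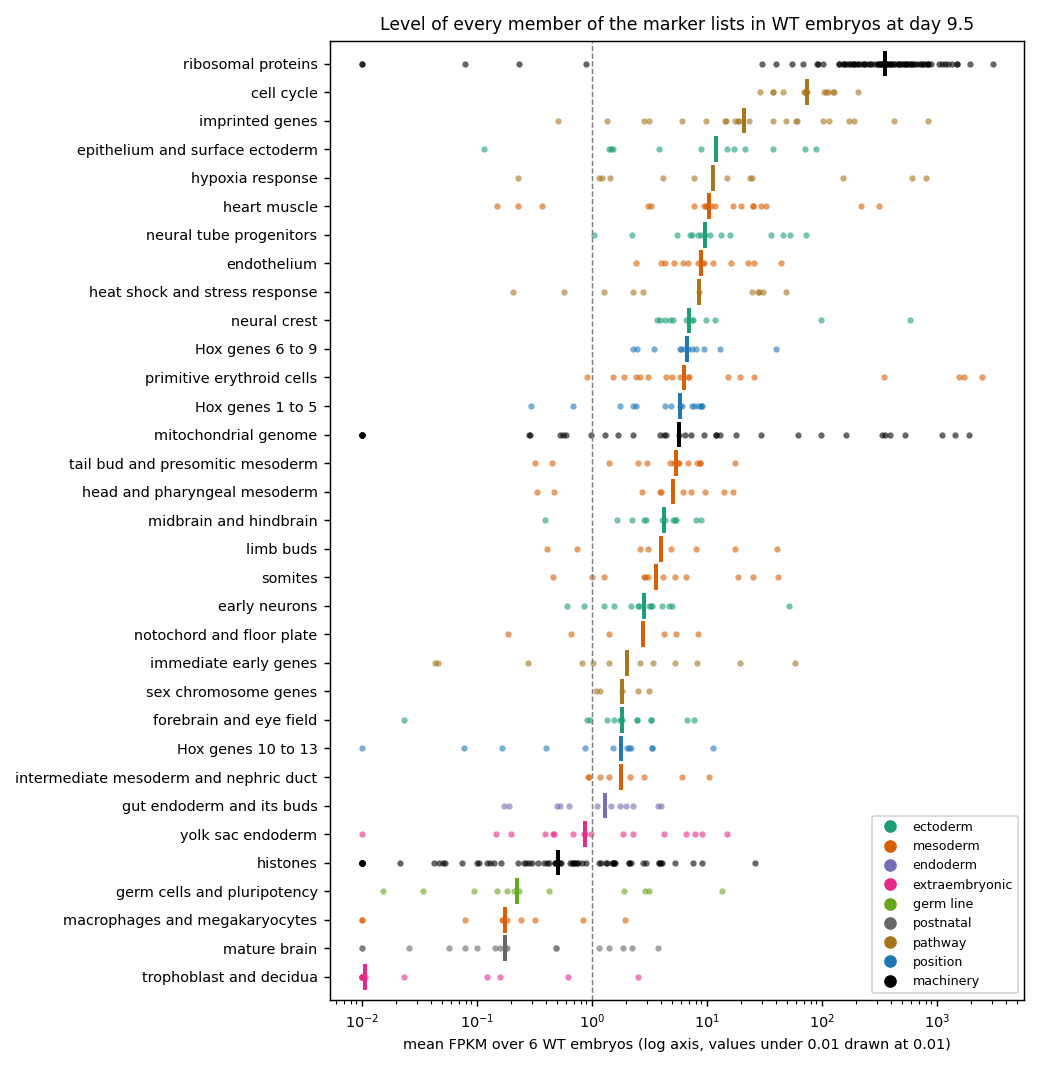
Mean FPKM over the 6 WT embryos (log axis) of every member of 33 gene lists. Each point is a gene, the vertical bar is the list median, the colour is the layer or kind of list and the dashed line marks 1 FPKM. Ribosomal protein and cell cycle genes sit highest, and trophoblast, mature brain and macrophage genes sit mostly below 1 FPKM.

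In the ectoderm, 15 of 15 neural tube progenitor genes were over 1 FPKM. The SoxB1 factors Sox2 (73.2 ± 5.52 FPKM) and Sox3 (52.8 ± 4.56 FPKM), which hold neural progenitors in their state, and the intermediate filament gene Nes (46.4 ± 6.44 FPKM) were the highest, and Nkx2-2, a factor of the ventral neural tube, was the lowest at 1.06 ± 0.22 FPKM. Forebrain and eye field genes were lower, with a list median of 1.82 FPKM. Lhx2 and Otx2 led at 7.71 ± 1.59 and 6.78 ± 0.841 FPKM, and Six3, a factor of the anterior forebrain and eye field, had 1.84 ± 0.261 FPKM. In the midbrain and hindbrain list En2, Wnt1 and Fgf15, which mark the midbrain-hindbrain boundary region, held 8.1 ± 0.946, 5.43 ± 0.555 and 5.33 ± 0.462 FPKM. Neural crest genes were all over 1 FPKM. The retinoic acid binding protein gene Crabp1, which is also made in the hindbrain, reached 589.6 ± 35.8 FPKM, Twist1 of the head and limb mesenchyme 98.8 ± 7.44 FPKM, and the crest regulators Sox10 and Foxd3 9.95 ± 2.16 and 3.89 ± 0.672 FPKM. Among epithelial genes the simple keratins Krt8 (89.7 ± 26.9 FPKM) and Krt18 (71 ± 14.3 FPKM) led, whereas Trp63, a regulator of stratified epithelium, had 1.52 ± 0.286 FPKM. Tubb3, a tubulin of neurons, reached 51.6 ± 18.2 FPKM, far above the other early neuron genes, which lay between 0.614 and 5.01 FPKM.

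In the mesoderm, heart muscle genes had a median of 10.5 FPKM and 17 of 20 were over 1 FPKM. Actc1, cardiac alpha-actin, was the highest at 315 ± 46 FPKM, followed by the atrial light chain gene Myl7 at 219 ± 47.5 and the troponin C gene Tnnc1 at 33 ± 5.05 FPKM. The cardiac factors Nkx2-5, Gata4 and Tbx5 stood at 11.8 ± 2.95, 10.1 ± 1.64 and 3.25 ± 0.451 FPKM. Myh6 was above Myh7, at 16.9 ± 3.62 against 10.2 ± 1.61 FPKM. Pln, which encodes the inhibitor of the calcium pump, was at 0.229 ± 0.0837 FPKM. The endothelial list was complete, with 14 of 14 genes over 1 FPKM. Plvap (44.3 ± 4.13 FPKM), Cldn5 (25.8 ± 2.38 FPKM) and the cadherin gene Cdh5 (22.7 ± 1.55 FPKM) were the highest and the VEGF receptor gene Flt1 the lowest at 2.4 ± 0.182 FPKM. Somite genes were led by Meox1 (41.2 ± 2.72 FPKM), Tcf15 (25.2 ± 4.75 FPKM) and Foxc2 (18.5 ± 2.54 FPKM), while the myogenic factor genes Myog and Myf5 were at 2.93 ± 1.12 and 1.27 ± 0.498 FPKM. Prrx2 of limb and facial mesenchyme (40.7 ± 1.89 FPKM), Hand2 of the heart, limb and branchial arches (16.9 ± 2.49 FPKM) and Six2 (10.4 ± 0.988 FPKM) were the highest of the limb, head and intermediate mesoderm lists. Shh, secreted by notochord and floor plate, stood at 8.36 ± 0.95 FPKM and Noto, a factor of the node and early notochord, at 0.662 ± 0.521 FPKM.

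Endoderm and extraembryonic markers were lower. Of 12 gut endoderm genes 7 were over 1 FPKM, led by Foxa1 (3.97 ± 0.475 FPKM) and by Hhex (3.79 ± 0.688 FPKM), a factor of the liver and thyroid buds, and Pdx1 of the pancreatic bud had 0.174 ± 0.0665 FPKM. The yolk sac list was led by Afp, the main serum protein of the fetus, at 14.9 ± 16.1 FPKM, and Apoc2 was listed at 0 in every embryo. Trophoblast and decidua genes were nearly absent. Only Plac1 (2.5 ± 1.04 FPKM) was over 1 FPKM, and the placental prolactin-family genes Prl3d1, Prl2c2 and Prl3c1, the spongiotrophoblast gene Tpbpa and Synb had no counts in any WT embryo. Of the germ cell and pluripotency genes Ifitm3, Kit, Tfap2c and Prdm1, each also made elsewhere in the embryo, were over 1 FPKM, whereas Dppa3, Pou5f1 and Nanog lay between 0.0955 and 0.182 FPKM. In the macrophage and megakaryocyte list only Pf4, a platelet chemokine gene, was over 1 FPKM (1.96 ± 1.22). The macrophage receptor gene Csf1r was at 0.168 ± 0.0647 FPKM and the pan-leukocyte gene Ptprc at 0.00784 ± 0.00482 FPKM.

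Because the series title names brain, genes of the mature brain were read as a check of the tissue. Opalin of oligodendrocytes and Neurod6 of cortical neurons had no counts in any WT embryo. Means of Mog, Gfap, Mag and Gad2 lay between 0.0255 and 0.0997 FPKM, and those of Snap25, Syt1, Slc17a7, Mobp, Rbfox3 and Aqp4 between 0.145 and 0.49 FPKM. Of the 17 genes of the list, 5 were over 1 FPKM, among them Nrgn, Camk2a, Mbp and Cnp, which lay between 1.16 and 3.75 FPKM. The mature brain list had a median of 0.174 FPKM, against 10.5 for heart muscle and 9.74 for neural tube progenitors, and the label of whole embryo was kept.

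Genes of cell division were high and even. All 14 were between 28.9 and 208 FPKM, with the replication clamp gene Pcna (208 ± 5.9 FPKM) at the top and the proliferation marker Mki67 (28.9 ± 1.14 FPKM) at the bottom. Imprinted genes were high as well. After H19, Mest stood at 421 ± 19.1, Nnat at 189.9 ± 21.5 and Grb10, an adaptor that restrains growth signalling, at 172 ± 4.23 FPKM, while Igf2 was listed at 23.3 ± 3.09 FPKM. Of genes that respond to low oxygen, the glycolytic enzymes Ldha and Pgk1 (811 ± 91.6 and 603 ± 78.2 FPKM) and the glucose transporter Slc2a1 (152 ± 26.8 FPKM) were far above Vegfa (7.72 ± 0.754 FPKM), Adm (1.15 ± 0.271 FPKM) and Car9 (0.227 ± 0.0725 FPKM). Immediate early genes, which tissue handling can induce, were low for Fos (0.282 ± 0.0615 FPKM), Fosb (0.0463 ± 0.0461 FPKM) and Egr1 (0.827 ± 0.229 FPKM) and higher for Ier2 (58.2 ± 3.78 FPKM) and Jun (19.4 ± 1.36 FPKM). The heat shock genes Hspa1a and Hspa1b were at 0.207 ± 0.0601 and 1.28 ± 0.14 FPKM, against 49 ± 1.67 FPKM for Hsph1.

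The median level per length of the Hox genes was 5.87 FPKM for paralog groups 1 to 5, 6.67 FPKM for groups 6 to 9 and 1.78 FPKM for groups 10 to 13. Hoxb9 was the highest single gene at 40.4 ± 3.06 FPKM, followed by Hoxb8 (13 ± 1.17 FPKM) and Hoxc10 (11.4 ± 6.51 FPKM). The other genes of groups 6 to 9 (Hoxa6, Hoxa7, Hoxa9, Hoxb6, Hoxb7, Hoxc6, Hoxc8, Hoxc9, Hoxd8 and Hoxd9) lay between 2.27 and 9.45 FPKM. In groups 1 to 5, Hoxa5, Hoxb4, Hoxb1, Hoxc4, Hoxa2, Hoxa4, Hoxc5, Hoxb5 and Hoxd1 lay between 4.34 and 9.15 FPKM and Hoxb3, Hoxa3, Hoxb2, Hoxd3 and Hoxd4 between 0.298 and 2.44 FPKM. In groups 10 to 13, Hoxa10, Hoxd10, Hoxa11, Hoxd13, Hoxd11 and Hoxc11 lay between 1.53 and 3.33 FPKM. Hoxa13, Hoxd12, Hoxc12 and Hoxc13 were under 1 FPKM and Hoxb13 had a mean of 0.167 counts.

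The spread between single WT embryos was measured as the excess CV, which is the coefficient of variation of CPM left after the part due to counting is removed. Among 12013 genes with a mean count of 50 or more the median excess CV was 0.0532, and 9269 genes (77.2%) were at or under 0.1. Genes over 0.25, called variable from here on, numbered 422, or 3.51%. Of them, 61 were over 0.5 and 11 over 1. Genes that the table assigns to a transcription factor family were 68 of the 422 (16.1%, against 8.39% of the 12013), pseudogenes 62 (14.7% against 3.19%) and long non-coding RNA genes 17 (4.03% against 1.4%). The variable genes had their lowest level in WT1 in 169 cases (40.0%) and in WT5 in 102 (24.2%), against 24.7% and 18.2% of all 12013. Their highest level was in WT1 in 103 cases (24.4%, against 24.2% of all), in WT2 in 98 (23.2% against 15.7%), in WT5 in 80 (19% against 17.1%) and in WT4 in 26 (6.16% against 13.9%). Without WT1 the count was 287, of which 243 were among the 422.

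**Figure D2:**
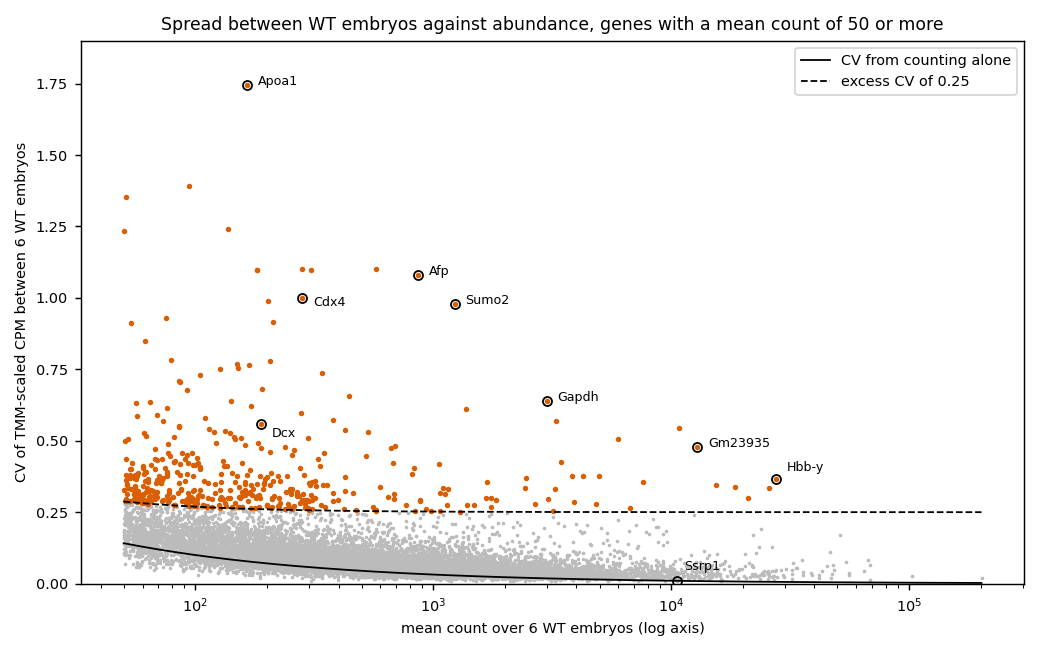
Coefficient of variation of TMM-scaled CPM between the 6 WT embryos (y axis) against the mean count (x axis, log) for 12013 genes with a mean count of 50 or more. The solid line is the variation that counting alone gives, the dashed line an excess CV of 0.25, and the 422 genes above the dashed line are in orange. Apoa1 and Afp stand highest among the circled genes, and Ssrp1 lies on the counting line.

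Several lists moved as a block from embryo to embryo, and some of their patterns were related. The list medians of the log2 difference from the 6-embryo mean were within 0.10 of 0 in every embryo for the cell cycle, immediate early, heat shock, imprinted, ribosomal protein and neural crest lists and for somites. They departed from 0 by more than 0.5 in some embryo for 5 lists other than the sex chromosome genes and lists with under 3 members over 50 counts, namely yolk sac endoderm, Hox genes 10 to 13, early neurons, primitive erythroid cells, and tail bud and presomitic mesoderm. The tail bud list stood at 0.59, -0.45 and -0.53 in WT1, WT5 and WT6, where the early neuron list stood at -1.15, 0.51 and 0.48. The tail bud and Hox 10 to 13 lists were both above 0 in WT1 to WT4 and below 0 in WT5 and WT6.

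**Figure D3:**
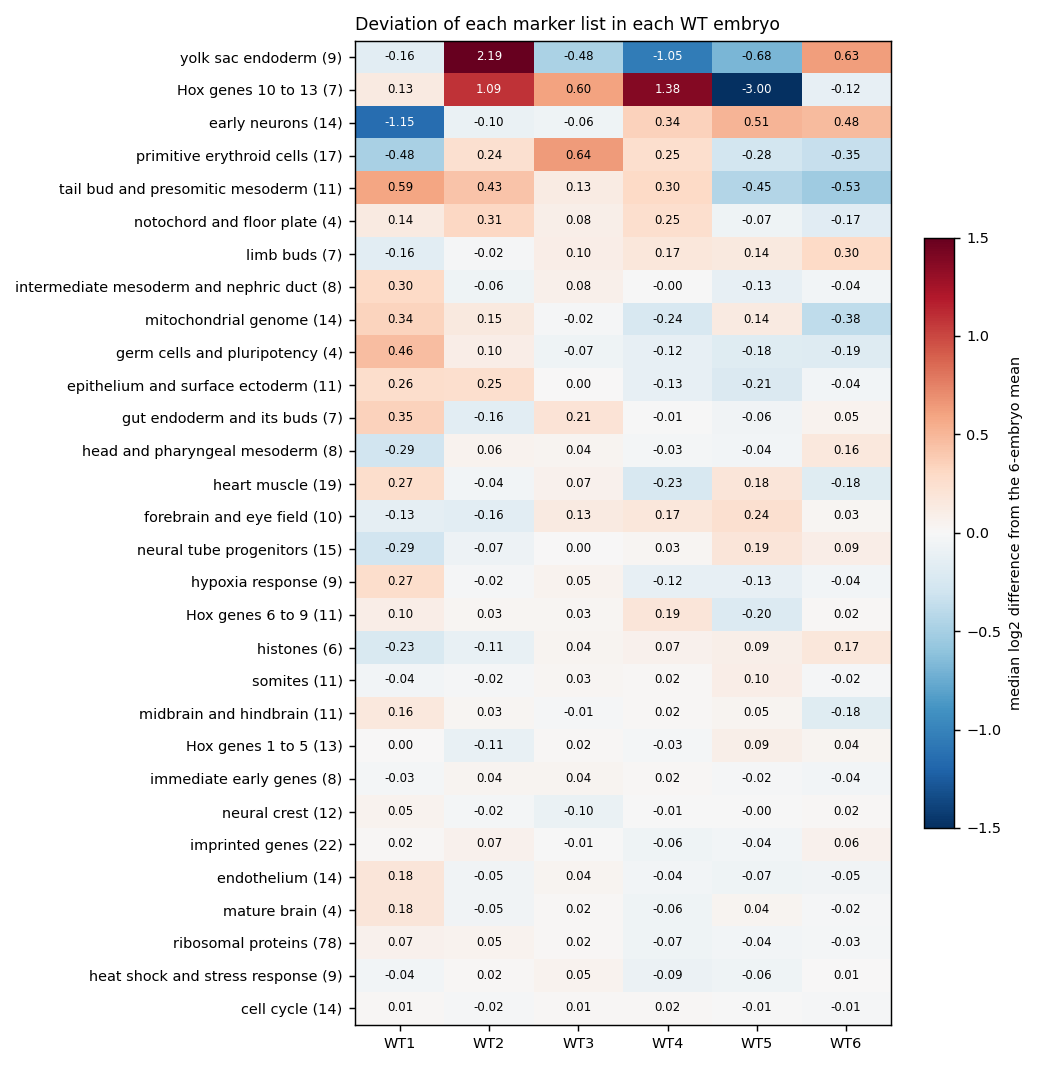
Median log2 difference from the 6-embryo mean, per list (rows, ordered by median excess CV, number of genes over 50 counts in parentheses) and WT embryo (columns). Red is above and blue below the mean, with the colour scale ending at 1.5 in both directions. WT2 stands out in the yolk sac list at 2.19, WT4 in the posterior Hox list at 1.38, where WT5 is the lowest, and WT1 in the early neuron list at -1.15.

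Primitive erythroid genes had the same high and low embryos, with 14 of 17 genes over 50 counts variable against 3.51% of all genes. Hbb-y measured 836, 2014, 2401, 1788, 1220.4 and 1253 CPM in WT1 to WT6. Hba-x measured 949, 1831, 2199, 1687, 1168 and 1067 CPM in the same order, and Hbb-bh1 684, 1394, 1564, 1140.5, 799 and 795 CPM. WT3 was the highest and WT1 the lowest embryo for all 3. The anion exchanger gene Slc4a1, a red cell membrane protein, had 67.5, 108, 137, 117, 77.4 and 68.7 CPM, and Alas2, the first enzyme of haem synthesis in red cells, 22.2, 41.1, 53.3, 43, 32.3 and 29.4 CPM. WT3 was the highest embryo for 16 of the 17 genes, and WT1, WT5 or WT6 the lowest for all. Of the regulators, Gata1 had an excess CV of 0.25, Klf1 of 0.31 and Tal1, which endothelial cells also make, of 0.18, beside 0.37 for Hbb-y, 0.34 for Hbb-bh1 and 0.33 for Hba-x. Nfe2, a factor of erythroid cells and megakaryocytes, measured 4.77, 4.54, 5.06, 4.71, 3.9 and 4.54 CPM, with an excess CV of 0. Endothelial genes, whose cells arise beside the primitive blood, had a median excess CV of 0.0726, against 0.0532 over all genes, and 0 of 14 were variable.

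The promoters of Hbb-y and Hba-x are shown as the most abundant pair of this block that the RefSeq promoter table holds (GRCm38.p6, 250 bases before to 50 after the gene start, gene strand, 5′ to 3′). They lie on chr7:103853158-103853457 (minus strand) and chr11:32276350-32276649 (plus strand). Capitals mark CCACCC, the box bound by Klf1-type factors, and TATAAA:
Hbb-y: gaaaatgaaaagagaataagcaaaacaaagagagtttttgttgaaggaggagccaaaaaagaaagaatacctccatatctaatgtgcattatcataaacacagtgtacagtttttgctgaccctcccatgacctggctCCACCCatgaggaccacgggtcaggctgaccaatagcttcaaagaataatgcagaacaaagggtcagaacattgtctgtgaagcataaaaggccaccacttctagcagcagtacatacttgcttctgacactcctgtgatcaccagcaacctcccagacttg
Hba-x: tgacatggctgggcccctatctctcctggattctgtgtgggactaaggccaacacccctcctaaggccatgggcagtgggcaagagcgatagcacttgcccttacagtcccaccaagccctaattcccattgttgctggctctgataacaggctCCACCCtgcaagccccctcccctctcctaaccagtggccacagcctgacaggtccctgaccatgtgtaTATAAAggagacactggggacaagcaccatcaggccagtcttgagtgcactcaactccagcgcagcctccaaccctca
CCACCC starts 112 bases before the start of Hbb-y and 96 bases before that of Hba-x, and TATAAA starts 28 bases before the start of Hba-x. On either strand CCACCC is in 31.5% and TATAAA in 13.6% of the 32851 promoters of the table. GATAAG, also searched on both strands and held by 7.44% of promoters, is in neither window. Such matches describe the letters only.

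The yolk sac endoderm block was highest in WT2. Afp measured 11.7, 157, 22.7, 18.7, 36.9 and 55.7 CPM in WT1 to WT6. Apoa1, the main protein of high-density lipoprotein, measured 2.39, 44.1, 1.78, 0.919, 2.33 and 6.81 CPM, and Apob, the backbone of low-density particles, 3.34, 20.9, 1.18, 1.15, 1.51 and 5.08 CPM. Ttr, a carrier of thyroid hormone, had 4.59, 28.1, 3.71, 2.01, 2.39 and 7.59 CPM. The retinol carrier gene Rbp4 had 11.7, 34.7, 6.3, 3.39, 4.25 and 10.6 CPM, and Cubn, an uptake receptor of the yolk sac, 1.55, 10.1, 1.29, 0.804, 0.64 and 3.29 CPM. WT2 was the highest embryo for all 9 list genes over 50 counts and WT6 the next for Afp, Apoa1, Apob, Ttr and Cubn, while Rbp4 was next highest in WT1. The minimum of 50 counts was a mean that included WT2, so genes could pass it through the embryo where they were highest. Both this result and the share of variable genes were therefore partly built in. In all, 7 of the 9 were variable against 3.51% of all genes, and without WT2 this held for 4 of the 6 still over 50 counts. Apoa1 then had an excess CV of 0.79 in place of 1.74, and Afp of 0.60 in place of 1.08. The members Mttp and Lrp2, which other epithelia also use, had excess CVs of 0.20 and 0.13. Summed over the list the embryos held 25, 169.8, 22.1, 16.6, 26.7 and 50.7 FPKM. How much yolk sac stayed with each embryo is not given in the labels, and its part in these values was not tested.

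Promoters of Afp, Apoa1, Apob and Rbp4 were looked up for this block, and only that of Apob is printed (chr12:7977427-7977726, plus strand, same table). Apob was among the most variable genes of the block, but Apoa1 was more variable (excess CV 1.39 against 1.74). Capitals mark TATAAA:
Apob: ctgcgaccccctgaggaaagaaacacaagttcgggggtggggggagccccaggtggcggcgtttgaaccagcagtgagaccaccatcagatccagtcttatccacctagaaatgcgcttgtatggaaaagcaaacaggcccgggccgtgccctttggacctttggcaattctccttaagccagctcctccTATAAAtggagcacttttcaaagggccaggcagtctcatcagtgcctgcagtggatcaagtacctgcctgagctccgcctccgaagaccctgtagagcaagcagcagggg
TATAAA starts 60 bases before the gene start of Apob. Afp holds it too, 7 bases before its gene start, as does 1 of the 2 Rbp4 windows, 28 bases before. The Apoa1 window holds no match. These distances are taken from the RefSeq starts. The annotation of the counts places the starts of Apob and Afp elsewhere, at chr12:7977648 and chr5:90490737, so the distances depend on the annotation. A longer motif, also searched for, is in the Afp window and not in those of Apob, Apoa1 or Rbp4. Such matches describe the letters only.

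Of the tail bud and presomitic mesoderm list, 6 of 11 genes over 50 counts were variable against 3.51% of all genes. WT1 was the highest embryo for 9 of the 11, against 24.2% of all genes over 50 counts. Cdx4, a caudal homeobox gene on the X chromosome, measured 45.3, 18.4, 16.7, 15.8, 0.0582 and 1.61 CPM in WT1 to WT6. Its relative Cdx2 measured 42.2, 26.4, 19.97, 22.3, 2.21 and 5.62 CPM and T, the brachyury factor of the primitive streak and notochord, 20.2, 15.3, 8.88, 11.5, 0.931 and 1.97 CPM. WT1 was the highest and WT5 the lowest embryo for these 3, with WT6 next above WT5. The presomitic mesoderm factor Tbx6 measured 9.37, 7.13, 3.93, 5.86, 0.466 and 0.658 CPM. Msgn1, which acts with it, measured 7.58, 4.07, 4.84, 4.65, 0 and 0 CPM and so had no count in WT5 or WT6. Nkx1-2, a gene of the axial progenitors, measured 19.9, 12.3, 10.7, 10.2, 2.79 and 3.95 CPM. Evx1, a homeobox gene beside the Hoxa cluster, measured 19.5, 10.8, 9.63, 8.96, 0.699 and 2.93 CPM and followed the same order at both ends. Of the genes named so far in this block, only Cdx4 in WT5 and Msgn1 in WT5 and WT6 lay below the floor of 3 counts. Not all genes of the list were much lower in WT5 and WT6. Lfng, a modulator of Notch in the segmentation clock, measured 38.5, 43.1, 48.3, 43.1, 48.3 and 45 CPM, and Dll1 34.1, 33.9, 30.1, 28.6, 25.4 and 22.9 CPM. Variable genes of the list numbered 5 of 10 without WT1 and 8 of 12 without WT5. The somite list itself held 1 variable gene of 11.

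The promoter of T (chr17:8434173-8434472, plus strand, same table) is shown for its match to TTTATGG, a form of site that Cdx factors bind. Capitals mark TTTATGG:
T: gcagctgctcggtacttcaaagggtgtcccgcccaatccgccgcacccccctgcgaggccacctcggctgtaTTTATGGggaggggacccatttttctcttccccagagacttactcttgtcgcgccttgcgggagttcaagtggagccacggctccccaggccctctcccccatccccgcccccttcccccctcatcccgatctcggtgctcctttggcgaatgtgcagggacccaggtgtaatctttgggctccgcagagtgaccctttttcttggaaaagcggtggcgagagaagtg
The match starts 178 bases before the gene start. TTTATGG on either strand is held by 2.75% of promoters. Of the other genes of the block looked up, Hes7 holds it too, while Cdx2, Cdx4, Evx1, Msgn1 and Tbx6 do not in this window. Such matches describe the letters only, and binding was not tested.

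**Figure D4:**
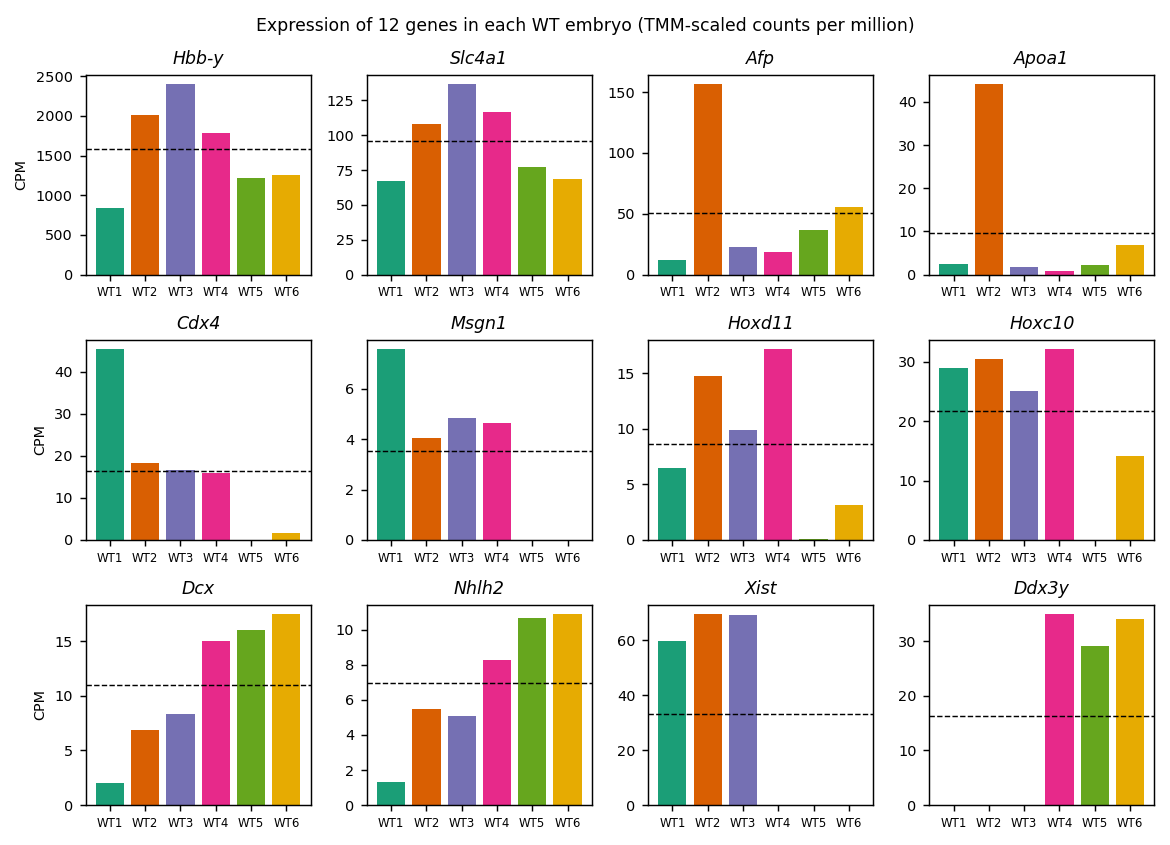
CPM of 12 genes (y axis, from 0, TMM-scaled) in the WT embryos WT1 to WT6 (x axis). The dashed line is the mean of the 6 embryos. Globin and Slc4a1 bars are highest in WT3, Afp and Apoa1 in WT2, Cdx4 and Msgn1 in WT1, and Hoxc10 has no bar in WT5.

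Hox genes of groups 10 to 13 were lowest in WT5 in all 7 members over 50 counts, and all 7 were variable against 3.51% of all genes. Hoxc10 measured 29, 30.5, 25, 32.1, 0 and 14.1 CPM in WT1 to WT6, so WT4 was at least 184-fold above WT5, taken against the floor of 3 counts in that library. Hoxa10 had 15, 15.7, 11.1, 13.4, 1.8 and 8.49 CPM and Hoxd10 5.13, 8.78, 6.03, 9.02, 2.68 and 4.66 CPM. In the next group Hoxa11 had 3.7, 7.78, 5.92, 7.07, 1.57 and 4.3, Hoxc11 1.97, 5.95, 2.8, 7.07, 0 and 0.837 and Hoxd11 6.5, 14.7, 9.9, 17.2, 0.116 and 3.17 CPM. Hoxd13 of the last group had 3.28, 8.13, 6.73, 9.996, 0.291 and 3.41 CPM. WT2 and WT4 were the 2 highest embryos for each of these 7 genes except Hoxa10, where WT1 came between them, and WT6 or WT1 was next above WT5. Unlike the tail bud genes, WT1 was not the highest for any. Summed over paralogs, group 9 stood at 167, 142, 147, 160.1, 128 and 159.6 CPM, group 10 at 49.1, 55, 42.2, 54.6, 4.48 and 27.3 CPM and group 11 at 12.2, 28.5, 18.6, 31.3, 1.69 and 8.31 CPM. The summed level had an SD of 15.5 CPM on a mean of 45.6 CPM for group 1 (n = 6). For groups 2 to 8 the SD was 1.6 to 5.79 CPM, on means of 20 to 60.8 CPM. For groups 9, 10 and 11 it was 14.7, 19.7 and 11.6 CPM on means of 151, 38.8 and 16.8 CPM. For groups 12 and 13 it was 1.37 and 4.71 CPM on means of 1.2 and 7.69 CPM. Without WT5, 6 of 7 posterior genes were variable and the list's median excess CV was 0.29 in place of 0.57.

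At the other end of the clusters, Hoxd1 and Hoxb1 were highest in WT1. Hoxd1 measured 15.6, 9.19, 8.83, 6.49, 3.2 and 5.44 CPM and Hoxb1 33.4, 20.5, 21.4, 21.1, 13.4 and 14.5 CPM, and WT5 was the lowest for both. Both were among the 3 variable genes of 13 over 50 counts in groups 1 to 5, and Hoxc9 (19.3, 16, 14.8, 16.9, 5.65 and 15.5 CPM) was the only variable gene of groups 6 to 9. Genes of the hindlimb field were low in WT5 as well. Tbx4, which starts the hindlimb bud, had 15.8, 12.8, 12.4, 11, 0.524 and 11.1 CPM and its regulator Pitx1, made also in the first branchial arch, 65.2, 51.4, 52.9, 47.5, 12.3 and 53.4 CPM. WT5 lay below the other 5 embryos for both. Tbx5 of the forelimb and heart had 16.5, 12.6, 14.5, 13.9, 18.6 and 15.7 CPM, with WT5 the highest. The antisense transcripts Evx1os and Hoxaas3 were also among the 30 most variable genes, with excess CVs of 0.70 and 0.75. Since the strand setting of the counting is not given, their reads cannot be told apart from those of the genes on the other strand.

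Early neuron genes were lowest in WT1 in all 14 list members, and highest in WT5 or WT6. Dcx, a microtubule protein of migrating neurons, measured 2.03, 6.9, 8.34, 15, 16 and 17.5 CPM in WT1 to WT6, and Nhlh2, a factor of newborn neurons, 1.31, 5.48, 5.11, 8.27, 10.7 and 10.9 CPM. Tubb3 measured 41.9, 76.7, 88.4, 121, 131 and 122 CPM, Elavl3 4.95, 13, 10.6, 16.5, 22.5 and 23.3 CPM and Neurod4 4.53, 10.5, 11, 11.3, 16.4 and 14 CPM. WT1 lay below the other 5 embryos for each of them. Of the list, 12 of 14 were variable against 3.51% of all genes, and without WT1 3 of 14, with a list median excess CV of 0.21 in place of 0.34. Neural tube progenitor genes leaned the same way with smaller excess CVs. Of 15, 11 were lowest in WT1 and 9 highest in WT5, none was variable, and the median excess CV was 0.139 against 0.0532 over all genes. Sox2 was lowest in WT2, at 141, 139, 153, 154, 171 and 150.3 CPM. The proneural gene Neurog1 measured 8.17, 11.3, 11.7, 12.5, 14.8 and 14 CPM, with WT1 the lowest. Genes of other lists that were lowest in WT1 included the limb gene Lhx9 (1.01, 5.66, 7.21, 8.33, 11.1 and 8.97 CPM), the facial mesenchyme gene Barx1 (8.29, 18.6, 16.8, 24.7, 24.2 and 26.9 CPM), and Myog (1.25, 4.18, 4.25, 5.57, 5.3 and 5.86 CPM).

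Phlda2, an imprinted gene that restrains placental growth, was the only variable member of the imprinted list, at 24.7, 13.5, 10.9, 6.89, 2.79 and 7.95 CPM in WT1 to WT6. WT1 was the highest and WT5 the lowest embryo. Plac1, the placental gene that was over 1 FPKM, had 6.09, 3.3, 2.74, 3.16, 1.8 and 3.95 CPM with the same highest and lowest embryos. The keratin gene Krt8 had 255, 219, 172, 134, 114 and 166 CPM, and Grhl3, a factor of surface ectoderm and neural tube closure, 4.06, 6.95, 4.57, 2.76, 2.15 and 3.11 CPM. The nephric factor Lhx1 was variable with 6.8, 3.3, 3.18, 3.5, 2.21 and 3.65 CPM, highest in WT1. Nkx2-1 of the gut endoderm list was variable with 1.79, 2.95, 4.95, 5.51, 4.42 and 5.8 CPM, lowest in WT1. The gut endoderm list as a whole was highest in WT1, at a median log2 difference of 0.35 from the 6-embryo mean.

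Xist, the RNA of the inactive X chromosome, measured 59.8, 69.3, 69, 0.0574, 0 and 0 CPM in WT1 to WT6. The Y-linked genes Ddx3y, Eif2s3y, Kdm5d and Uty had no count in WT1, WT2 or WT3. In WT4, WT5 and WT6 they measured between 19.8 CPM for Eif2s3y and 37.5 CPM for Kdm5d. Cdx4 is X-linked and was also lower in WT4, WT5 and WT6, but WT4 at 15.8 CPM was near WT3 at 16.7 CPM. Of the blocks described above, the posterior Hox list was highest in WT4 and lowest in WT5, both with Y-linked transcripts. The yolk sac list stood at 2.19 in WT2 against -0.16 in WT1 and -0.48 in WT3 (median log2 difference from the 6-embryo mean), all with Xist. The early neuron list split by sex, at -1.15, -0.095 and -0.062 in WT1, WT2 and WT3 against 0.34, 0.51 and 0.48 in WT4, WT5 and WT6. The part of sex in these blocks was not tested.

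Some of the most variable entries were genes with near-identical copies, and their spread was smaller when the copies were counted with them, a sum added after the values had been seen. A copy is a gene whose transcript matches at 95% identity or more over at least 200 bases. Sumo2, a small ubiquitin-like modifier, measured 31.1, 48.8, 27.2, 32.6, 209 and 81.5 CPM in WT1 to WT6, with WT5 far above the rest. Its processed pseudogene Gm10241, identical to it over 286 bases of GENCODE M21 transcript, measured 167, 135, 186, 169.6, 57.2 and 122 CPM, lowest in WT5. Sumo2 and its 10 copies together held 201, 187, 215, 205, 268 and 205 CPM, and the excess CV went from 0.979 to 0.131. Gm14434 went from an excess CV of 1.34 alone to 0.0737 with its 14 copies on chromosome 2, and Amd2 from 0.722 to 0.0356 with Amd1, an enzyme gene of polyamine synthesis, and 3 pseudogenes. Gm12411 went from 0.699 to 0.125 with 56 copies, among them the ribosomal protein gene Rpl21. Amd1 alone held 193 to 216 CPM, against 3.77 to 15.1 CPM for Amd2. Rpl21 held 90.2 to 240 CPM, against 1.61 to 10.9 CPM for Gm12411. Gm14434 reached at most 9.67 CPM in a total of 36.6 to 45.4 CPM. A sum with more abundant copies mostly follows those copies, so the drop for these entries does not show a split of reads. Gm21887 and Gm47283, copies of each other, had an excess CV of 0.62 when summed. Wdfy1 had no copy by this rule and measured 23.8, 2.06, 1.78, 22.6, 21.9 and 2.33 CPM, with WT1, WT4 and WT5 high and WT2, WT3 and WT6 low. The Apoa1, Afp, Cdx4, T, Msgn1 and Hoxd13 entries had no copy either.

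Gapdh was chosen after its values were seen, since it is widely used as a reference gene. It measured 286, 112, 289, 6.2, 131 and 213 CPM in WT1 to WT6, and WT3 held 46.6 times the level of WT4. With 87 copies, 85 of them pseudogenes, the embryos held 434, 211, 435, 156, 266 and 310.3 CPM, so that WT4 remained the lowest and the excess CV went from 0.639 to 0.38. The glycolytic enzyme genes Pgk1 and Ldha were not lowest in WT4. Pgk1 measured 1687, 1294, 1425, 1268, 1248 and 1243 CPM, with an excess CV of 0.13, and Ldha 3231, 2645, 2848, 2536, 2461 and 2465 CPM, with an excess CV of 0.11.

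**Figure D5:**
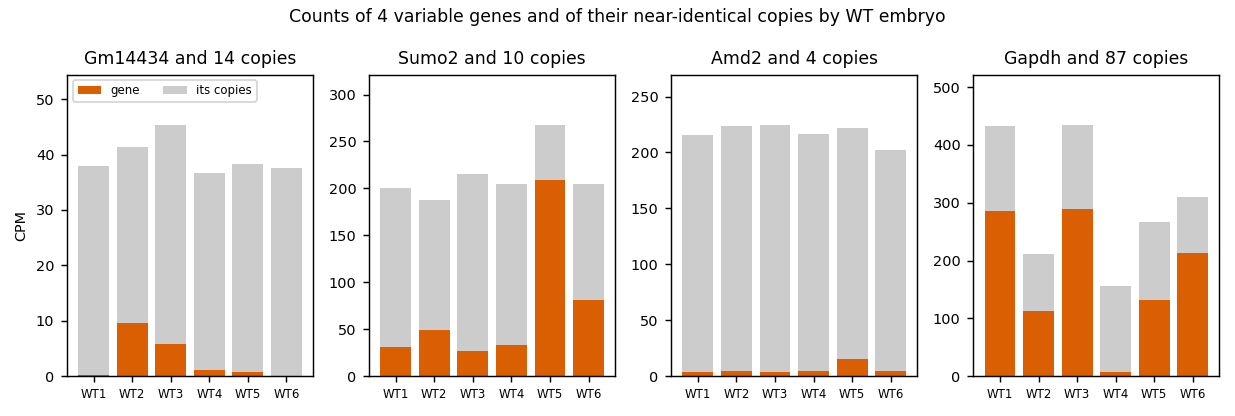
CPM (y axis, from 0) in each WT embryo (x axis) of Gm14434, Sumo2, Amd2 and Gapdh (orange) with the summed CPM of their near-identical copies stacked on top (grey). Orange bars differ greatly between embryos, while the stacked totals are close to level for Gm14434, Amd2 and, except in WT5, Sumo2, and not for Gapdh. The Amd2 total is mostly that of Amd1, so its even height does not show a split of reads.

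Ssrp1, Khdrbs1, Tnks2, Yap1 and Ubtf had an excess CV of 0 and the highest mean counts of the genes tied at that value. Ssrp1, a subunit of the histone chaperone FACT, measured 612, 607, 622, 612, 614 and 611 CPM in WT1 to WT6, and Yap1, the transcriptional effector of Hippo signalling, 354, 343, 348, 353, 346 and 352 CPM. Ubtf, a factor of RNA polymerase I, stayed within 312 and 319 CPM. An excess CV of 0 was reached by 1357 of the 12013 genes and says that their spread was no larger than counting gives at this depth. Of the lists, cell cycle genes were the steadiest with a median of 0.0261, followed by heat shock (0.0367) and ribosomal protein genes (0.0475). Among ribosomal proteins 5 of 78 were variable (Rps29, Rpl17, Rpl7a, Rps27a and Rpl21), with Rps27a at 549, 310.5, 219.8, 216, 211 and 599 CPM. Rpl21 is among the copies whose sum with Gm12411 had an excess CV of 0.125. Copies of Rps29, Rpl17, Rpl7a and Rps27a were not searched for, so their split between copies is unknown.

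KO embryos were compared only to show where these baseline patterns stand in the series. Of 12364 genes with a mean KO count of 50 or more, 1856 had an excess CV over 0.25, or 15.0%, against 3.51% in WT, and of 11975 genes over 50 counts in both groups 9725 were more variable in KO. The difference in spread was not tested here. None of the 421 variable WT genes tested by edgeR was called between WT and KO, against 0.0203% of all genes, and 21 (4.99%) had an unadjusted p of 0.05 or less, against 17.9% of all genes tested. The DESeq2 Wald test called 4 of 422 (0.948%, against 1.18% of all genes) and limma voom 1 of 421 (0.238%, against 0.358%), shares near those of all genes. The variable genes had been picked for a large spread among the same WT embryos, which enters these tests, so low shares were built in. With 0.0203% of all genes called by edgeR, 0 of 421 says little about them. KO levels of Afp, Cdx4 and Hoxd11 overlapped with WT. Afp ran from 0 to 210.1 CPM in KO with a median of 32.3 CPM, Cdx4 from 0 to 27.2 CPM with a median of 11.2 CPM, and Hoxd11 from 0 to 15.5 CPM with a median of 6.18 CPM. 2310061I04Rik was itself variable in WT, at 14.4, 7.19, 15.8, 8.04, 12.5 and 14.6 CPM in WT1 to WT6, and lay between 1.13 and 6.38 CPM in KO (log2 fold change -2.35, edgeR adjusted p = 0.155). Without KO embryo 6 its edgeR adjusted p was 8.3e-05. No WT embryo lay below a KO embryo.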

How the data were processed

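Whole mouse embryos at E9.5 were collected in RNAlater, RNA was extracted with a lipid tissue kit, and a service company made and sequenced the libraries. The deposited table gives, for each gene and embryo, read counts that the authors did not normalize. It also gives FPKM values, which the authors obtained from the count, the gene length and the library total. Reads were aligned to GRCm38 per the submitters' processing notes. Which tools aligned and counted the reads, and whether strand was used, is not given in the sources used here. The authors' own columns of group means, fold changes and p-values were not used. Of 54532 genes none lacked an identifier, and 103 symbols occur on more than 1 row.

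Counts were scaled with TMM factors (edgeR 4.0.16, R 4.3.3) to CPM. The excess CV is the square root of the squared CV of CPM over the 6 WT embryos minus the reciprocal of the mean count, which is the Poisson part, and 0 where the difference is negative. Genes with a mean count of 50 or more were ranked by it and called variable above 0.25, and genes over 1 FPKM were called detected. WT and KO were compared with edgeR's quasi-likelihood F test after its filter on low counts, with Benjamini-Hochberg adjustment over all genes, and with DESeq2 1.42.0 and limma voom 3.58.1 as alternatives. These steps were tested on simulated data. Near-identical transcripts of GENCODE M21 were found with BLASTN 2.17.0+, and promoter sequences came from RefSeq (GRCm38.p6), where 13 of 14 genes looked up were found.

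The members and the gene lists were chosen with earlier results of these data known. Named genes were Traf7 and 2310061I04Rik, the 20 protein-coding and 10 long non-coding RNA genes with the highest FPKM among genes of at least 200 bases, the 30 most variable genes, the 5 least variable genes with a mean count of 1000 or more (ties in order of mean count), and of each list the highest, the most variable and the nearly absent members, with every Hox, globin, sex chromosome and mature brain gene. Other genes of the lists were named after their values were seen. Nothing in the labels says which embryos share a litter, so the spread is that between single embryos, technical variation included. Some members of the lists are counted but not reported here by name.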

Additional observations from a re-analysis of the deposited data

Results flagged for a closer look

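Of 63 values tested in the 6 WT embryos, 14 had a single embryo whose gap to its nearest neighbour took a larger part of the whole range than Dixon's 95% limit for 6 samples allows (that part is given in parentheses). Chance flags about 1 in 20 such groups, and the genes tested had been picked as the most variable, so more flags than that are built in. WT2 stood above the others for Apoa1 (0.864), Apob (0.801), Ttr (0.786), Rbp4 (0.734), Cubn (0.721) and Afp (0.696), and for the summed FPKM of the yolk sac endoderm list (0.777), which holds these genes. WT5 stood above the others for Amd2 (0.905), Gm21887 (0.722) and Sumo2 (0.701), all of which have near-identical copies, and WT3 for Gm47283 (0.697), the copy of Gm21887. WT1 stood above the others for Hoxaas3 (0.632) and for the summed FPKM of the lists of intermediate mesoderm and nephric duct (0.690) and of Hox genes 1 to 5 (0.715).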

How the results depend on the processing

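The number of variable genes was 848 with a mean count of 20 or more as the minimum and 149 with 200 or more, where 13546 and 9206 genes could be ranked, and 235 when edgeR's tagwise dispersion took the place of the excess CV. It ranged from 287 (without WT1) to 487 (without WT4) when 1 embryo was left out. The 100 most abundant genes took 29.9% of the total when FPKM values were rescaled in place of counts, and 17.9% to 18.1% of counts without 1 embryo. Genes called between WT and KO numbered 3 by edgeR, 328 by the DESeq2 Wald test and 53 by limma voom with quality weights, 5 without KO embryo 5, and 2 to 5 without any 1 embryo. With the replicate number as a block (the replicate block) 2 genes were called. Same-numbered WT and KO embryos had deviations that correlated between -0.32 and 0.29, so the numbers were not taken to pair the embryos. The fold change of 2310061I04Rik passed the threshold without KO embryo 6 (-2.93), by DESeq2 (-2.35) and by limma voom (-2.46). Of the excess CVs of single genes 259 moved by less than their spread and 11 by more, and of the list medians 238 and 26. No direction was reversed under the alternatives run. Leaving out each embryo for the 5 blocks of genes, the sums over copies and the alternatives for Traf7 and 2310061I04Rik were chosen after seeing the data. With 6 embryos of unknown somite number, litter and dissection, their parts in the spread were not tested.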

Other observations

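Transcripts of the mitochondrial genome were lowest in WT6. mt-Co1 measured 3435, 3252, 2856, 2649.7, 3485 and 2193 CPM in WT1 to WT6, and mt-Nd1 1776, 1577, 1325, 1186, 1423 and 1050.0 CPM. WT5 was the highest embryo for mt-Co1 and WT1 for mt-Nd1, with WT6 the lowest for both, and the median log2 difference of the list from the 6-embryo mean was 0.34 in WT1 and -0.38 in WT6. Of 14 mitochondrial genes over 50 counts, 2 were variable.

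WT1 was the highest embryo for 7 of 9 genes over 50 counts that respond to low oxygen, against 24.2% of all genes over 50 counts. None of the 9 was variable. Slc2a1, the main glucose transporter of the embryo, measured 689, 593, 543, 466, 453 and 465 CPM in WT1 to WT6. Bnip3, a mitochondrial protein of the response, measured 65.5, 47.3, 56.3, 47.1, 54.8 and 52.4 CPM, and Egln3, an oxygen-sensing hydroxylase, 14.6, 9.9, 11.1, 10.3, 8.73 and 12 CPM. Slc2a1 was at 543 CPM or more in WT1, WT2 and WT3, the embryos with Xist, and at 466 CPM or less in WT4, WT5 and WT6.

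Heart genes had the same highest embryo in many cases. Myl7 measured 178, 128, 135, 97.8, 133 and 107 CPM and Nkx2-5 24.6, 17.8, 16.4, 13.7, 22 and 13.6 CPM in WT1 to WT6, both highest in WT1. Nppa, the atrial peptide gene, was variable, with 4.47, 8.96, 8.56, 7.01, 10.6 and 9.8 CPM and WT1 the lowest embryo. WT1 was the highest for 13 of the 19 heart genes over 50 counts and WT5 for 6, against 24.2% and 17.1% of all genes over 50 counts.

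In the gut endoderm list Nkx2-3, a factor of the gut and pharyngeal mesenchyme and endoderm, measured 6.32, 3.83, 5.81, 4.31, 2.56 and 6.4 CPM in WT1 to WT6, highest in WT6 and lowest in WT5. Trib3, a target of the stress response, was the variable gene of its list with 3.64, 7.37, 10.2, 5.17, 4.54 and 4.96 CPM, highest in WT3 and lowest in WT1.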
